A study of Mus musculus with 14 samples.

Results

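The Hox cluster genes are the 39 homeobox genes of the mouse Hoxa, Hoxb, Hoxc and Hoxd clusters, taken here as every gene entry whose symbol is Hox, a cluster letter and a paralog number. Each symbol had 1 row, so 39 of 23523 gene entries were members. The study sequenced polyadenylated RNA of embryonic mouse spinal cord cells, with and without microRNA-218 (miR-218), which motoneurons make in quantity. Motoneurons of E12.5 embryos were sorted by the GFP of an Hb9::gfp reporter, and gave 2 libraries of the background 218DKO (DKO, lacking both miR-218 genes) and 6 libraries of wild type (WT). V1, V2a and V3 interneurons of the same stage were wild type, were sorted by tdTomato from Rosa26:LSL:tdTomato after En1:cre, Chx10:cre and Sim1:cre, and gave 1 library each. Mouse embryonic stem (mES) cells, differentiated for 4 days with retinoic acid and a sonic hedgehog agonist, gave 1 library of tdTomato-sorted Olig2:cre motoneuron progenitors (mES pMN) and 1 of unsorted neural progenitors without a reporter (mES NP). A floor plate sample was not analysed here. The labels do not say which levels of the cord a library holds, how many embryos were pooled, or whether replicates came from separate embryos, so the p-values cover only the variation among these libraries, part of which may be technical.

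Hox genes encode transcription factors that give cells along the body axis their position. Genes at the low-numbered end of a cluster are active from the hindbrain backwards and genes at the high-numbered end only further caudally, and retinoic acid favours the rostral genes while fibroblast growth factors and Gdf11 favour the caudal ones. In spinal motoneurons the paralogs 4 to 8 mark mainly cervical and brachial levels, Hoxc9 the thoracic cord, and the paralogs 10 to 13 the lumbar and sacral cord. Together with their Pbx and Meis partners they set which motor columns and pools a motoneuron joins.

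On GRCm38 the 11 Hoxa genes lie on chromosome 6 (minus strand), the 10 Hoxb genes on chromosome 11 (chr11:96194316-96368256, plus), the 9 Hoxc genes on chromosome 15 (chr15:102921103-103036852, plus) and the 9 Hoxd genes on chromosome 2 (chr2:74668310-74765142, plus). Hoxc starts at paralog 4 and the other clusters at paralog 1. All 39 were protein-coding in the annotation. Their sites for miR-218 are shown first, since its loss is the perturbation of the study. The mature 5p strand is the same from both miR-218 genes, at chr5:48223966-48223986 and chr11:35616840-35616860 on the plus strand (RefSeq, GRCm38.p6), with the seed, bases 2 to 8, in capitals:
mmu-miR-218-5p: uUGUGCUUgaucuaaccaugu

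The complement of this seed, AAGCACA (a 7mer-m8 site), was found in the annotated 3′ UTR of 5 of the 39 Hox genes, among them Hoxa10, Hoxb3, Hoxd8 and Hoxd10, while AAGCACAA (8mer) and AGCACAA (7mer-A1) were found in none. Among 19562 genes examined in the same way, 17.0% had at least 1 of the 3 and 8.96% had the 7mer-m8 as their strongest site. The sites of these 4 genes lie at chr6:52231629-52231658 (Hoxa10) on the minus strand, and at chr11:96346763-96346792 (Hoxb3), chr2:74707413-74707442 (Hoxd8) and chr2:74694900-74694929 (Hoxd10) on the plus strand. In the transcript sequences of the annotation, with the match in capitals, they read:
Hoxa10: tggtaacacaagaaAAGCACAccacaattc
Hoxb3: caagcagggcagagAAGCACAttcaacact
Hoxd8: gccaaatattggaaAAGCACAttagctgaa
Hoxd10: agggggactttaaaAAGCACAttacaatgt

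A match says only that the letters are there, and whether miR-218 binds these sites was not tested. The tables held 0 entries for the miR-218 genes and 0 for Mir10 or Mir196, the microRNAs inside the Hox clusters, so the deletion itself is not checked by the values.

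The values are a signal per gene, a length-scaled abundance scaled between libraries, so levels can be compared between genes. The libraries held about 7.07 M and 14.7 M reads (DKO), 11.2 M to 27.0 M (WT motoneurons), 15.5 M to 16.7 M (interneurons) and 22.2 M to 24.6 M (mES). For a transcript 2000 bases long, 3 reads were worth between 0.995 (WT replicate 1) and 3.94 (DKO replicate 1) units of signal, so lower signals carry little information. Markers of the labelled cells were present: Mnx1, the gene of Hb9, was at 3863 to 4330 in DKO and 2194 to 3995 in WT motoneurons and at 7.46 or less in the interneurons, and the V1, V2a and V3 marker sums were 2830, 9263 and 3665 in their own libraries. The V2a library also had Chat and Slc18a3, genes of acetylcholine release, at 309 and 1202. Rn45s, the ribosomal RNA precursor, was at 1112 to 1647 in the DKO libraries, at 10197, 27943 and 14356 in WT replicates 2, 3 and 4, and at 644 to 4275 in WT replicates 1, 5 and 6.

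**Figure D1:**
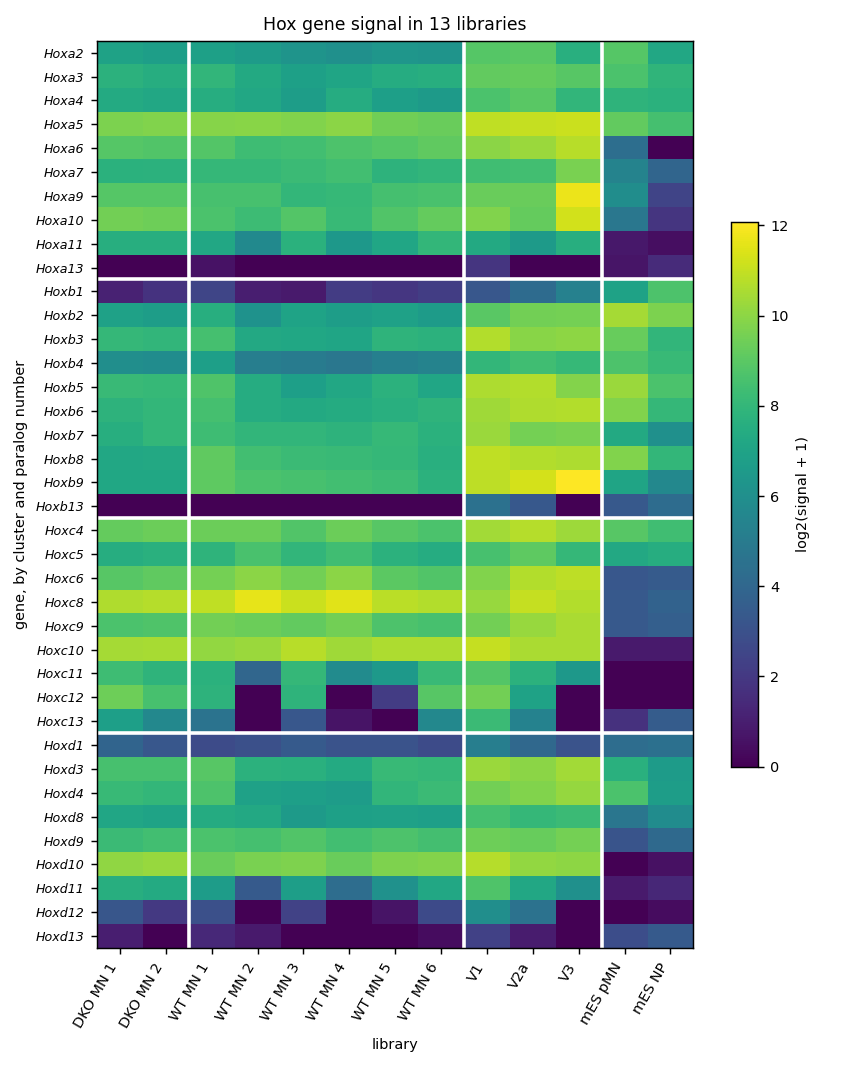
Signal of 38 Hox genes as log2(signal + 1), colour scale on the right, with genes by cluster and paralog number down the page and the 13 libraries across it. The Hoxb block is brighter in the 3 interneuron libraries than in the DKO and WT motoneurons, and the genes of paralogs 11 to 13 differ among the WT libraries.

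Both genotypes of motoneuron expressed genes of all 4 clusters. A signal of at least 100 was reached by 31 and 30 of the 39 genes in the DKO libraries and by 24 to 31 in the WT libraries, and 2 and 3 genes in the DKO libraries and 1 to 5 in the WT libraries were listed at 0. The highest member was Hoxc8, which takes part in the choice of brachial motor pools, with 1577 and 1719 in DKO and 1630 to 3166 (median 2086) in WT motoneurons. Hoxc10, a gene of lumbar motoneurons, came next with 1383 and 1449 in DKO and 1105 to 1753 (median 1406) in WT. By WT mean Hoxa5, needed for phrenic motoneurons, led the Hoxa cluster (636 to 999.6, median 912), Hoxd10 led Hoxd (632 to 922, median 828) and Hoxb9 led Hoxb (219 to 532, median 356). Hoxb9 was not the highest Hoxb gene in every WT library. Hoxb8 (560) lay above Hoxb9 (532) in WT replicate 1, and Hoxb6 (231) above Hoxb9 (219) in WT replicate 6. The WT ranges of Hoxc8 and Hoxc10 overlap, but Hoxc8 lay above Hoxc10 in every WT library and in both DKO libraries. The WT ranges of Hoxa5 and Hoxd10 overlap too, and Hoxd10 was the higher only in WT replicates 5 and 6, so their order is within the spread. Both Hoxc genes lay above Hoxa5 in every WT library. At the other end, Hoxa13, Hoxb13 and Hoxd13, genes of the tail end of the axis, were at 1.6 or less in all 8 motoneuron libraries. The 4 clusters took unequal parts of the summed Hox signal: Hoxc 43.7% to 44.3% in DKO and 41.4% to 55.3% in WT, Hoxa 25.8% to 26.3% in DKO and 20.9% to 25.6% in WT, Hoxd 18.3% to 19.0% in DKO and 11% to 17.7% in WT, and Hoxb 11.1% to 11.5% in DKO and 11.4% to 20.3% in WT.

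The WT libraries differed among themselves more in Hox genes than in most genes. The median SD of log2(signal + 1) over the 6 WT libraries was 0.43 for the 36 Hox genes with a WT mean of at least 1, against 0.25 for 16180 such genes of the table, and it was 1.38 for the 9 of paralogs 10 to 13. Hoxc12 had the largest SD, 4.19, with signals of 222, 0, 234, 0, 3.36 and 484 in WT replicates 1 to 6. The same libraries were low for its neighbours: Hoxc11 had 206, 15.0, 266, 56.4, 92.1 and 286, and Hoxc13 had 23.1, 0, 8.75, 0.573, 0 and 48.0. In the Hoxd cluster, Hoxd11, a gene of the limb and the caudal axis, had 102, 9.76, 107, 19.2, 67.8 and 150, and in the Hoxa cluster Hoxa11 had 148, 51.7, 212, 84.7, 138 and 250. WT replicates 2 and 4 were thus the 2 lowest libraries for 5 of the 6 measured genes of paralogs 11 to 13, across 3 clusters, and they were the 2 highest for Hoxc5, Hoxc6 and Hoxc8, 3 of the 5 genes Hoxc4 to Hoxc9. Hoxd12 stayed low throughout (8.25 and 2.96 in DKO, 0 to 6.78 in WT). Hotair, the noncoding RNA between Hoxc11 and Hoxc12, had 110 and 89.4 in DKO and 41.0, 2.85, 31.2, 3.14, 10.5 and 55.6 in WT replicates 1 to 6. Paralogs 11 to 13 together gave 11.5% and 7.85% of the Hox signal in DKO, and 5.04%, 0.588%, 6.62%, 1.27%, 2.64% and 10.3% in WT replicates 1 to 6.

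WT replicate 1 stood apart in another way. It was the highest WT library for 17 of the 36 genes, among them all 9 measured Hoxb genes. Hoxb4, for example, was at 112 there and at 26.6 to 41.1 in the other WT libraries. The same library had the highest WT sums of V2a markers (79.5, against 4.53 to 17.7), dorsal neuron markers (243, against 28.1 to 66.0), blood markers (1282, against 2.78 to 201) and microglia markers (110, against 3.52 to 17.8). The part of those cells in its Hox values was not tested. The steadiest of the 36 genes was Hoxd9 (344 to 437, SD of log2 0.14), and 14.5% of genes had a smaller SD.

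**Figure D2:**
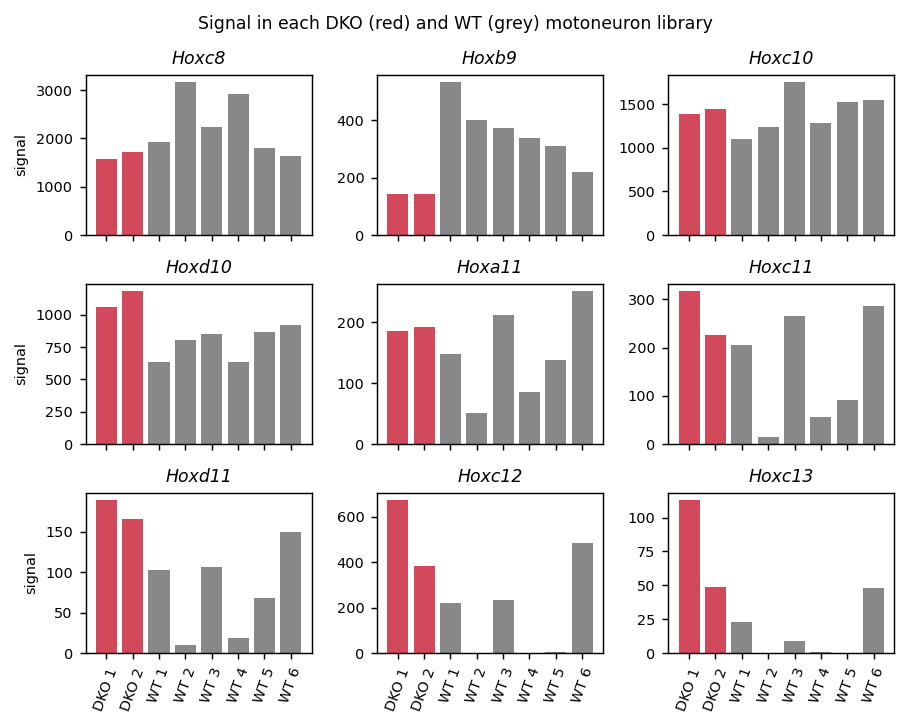
Signal (linear axis from 0) of 9 Hox genes in each DKO (red) and WT (grey) motoneuron library. Hoxc12 spans 0 to 484 among the 6 WT libraries and Hoxb9 is lower in both DKO libraries than in any WT library.

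Between DKO and WT motoneurons the question was which Hox genes differ when miR-218 is absent. Of the 36 Hox genes that passed the filter on low signal (a mean of at least 1 over the 8 libraries), 1 was lower and 0 were higher in DKO at an adjusted p under 0.05 (limma, Benjamini-Hochberg over all 16260 genes tested), where 7.99% of all genes tested were called, 4.77% lower and 3.22% higher. At an unadjusted p under 0.05 there were 7 Hox genes, against 26.4% of all genes. The share of Hox genes called was therefore not above the background. The median log2 difference over the 36 was 0.23, with 24 positive and 12 negative, against 0.00 over all genes tested (0.001536 before rounding). Hoxa13, Hoxb13 and Hoxd13 did not pass the filter.

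The called gene was Hoxb9, a gene of the thoracic segments. It had 143 and 143 in DKO, against 219 to 532 (median 356) in WT, so that the groups did not overlap. The means were 143 ± 0.126 (SD, n = 2) in DKO and 362 ± 104 (n = 6) in WT, a log2 difference of -1.28 (SE 0.25, adjusted p = 0.0140, limma). Hoxb9 no longer passed with either DKO library left out (adjusted p = 0.142 without replicate 1 and 0.140 without replicate 2), with the same difference of -1.28. In those fits 0.598% and 0.868% of all genes were called. Its neighbour Hoxb8 had 151 and 154 in DKO, against 193 to 560 (median 296) in WT. This difference of -1.01 (SE 0.30) did not pass (adjusted p = 0.0598, limma). It passed without WT replicate 1 (-0.84, adjusted p = 0.0290) or replicate 6 (-1.14, adjusted p = 0.0286). Neither gene had a miR-218 site among the 3 kinds searched. The other Hoxb genes lay nearer to 0: Hoxb1 and Hoxb2 had differences of -0.30 and -0.02, Hoxb3 to Hoxb6 of 0.38, 0.53, 0.59 and 0.21, and Hoxb7 of -0.18, all with adjusted p above the threshold. Hoxb8 and Hoxb9 lie next to each other in the cluster, and the WT library lowest for both was replicate 6 (193 and 219).

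The caudal genes had higher mean log2 values in DKO, without passing. The DKO and WT libraries did not overlap for 4 of the 9 measured, against 14.9% of all genes tested that lay higher in DKO. The others overlapped: Hoxa11 had 186 and 192 in DKO and up to 250 in WT, and Hoxc11 had 317 and 227 in DKO and up to 286 in WT. All 9 measured genes of paralogs 10 to 13 had a positive difference, with a median of 1.15, against -0.43 for the 7 of paralogs 8 and 9, 0.16 for the 12 of paralogs 4 to 7 and 0.31 for the 8 of paralogs 1 to 3. These genes belong to the Hoxa, Hoxc and Hoxd clusters and lie side by side within each. As shown above, WT replicates 2 and 4 were the 2 lowest for 5 of the 6 measured genes of paralogs 11 to 13. The 9 genes are therefore not independent of each other. Hoxa10 had 719 and 688 in DKO, against 281 to 591 (median 422) in WT, a log2 difference of 0.81 (SE 0.23, adjusted p = 0.0575, limma). Hoxd10, which with Hoxc10 sets lumbar motoneuron columns, had 1062 and 1182 in DKO, against 632 to 922 (median 828) in WT (0.53, SE 0.16, adjusted p = 0.0638, limma). The DKO and WT libraries did not overlap for either gene, and both genes carry a miR-218 site shown above. Hoxc13 had 113 and 48.8 in DKO, against 0 to 48.0 (median 4.66) in WT, a difference of 3.88 with an SE of 1.40 (adjusted p = 0.112, limma). Hoxc12 had 672 and 382 in DKO, against 0 to 484 (median 113) in WT, a difference of 4.53 with an SE of 2.33 (adjusted p = 0.242). The groups overlapped for Hoxc12, where WT replicate 6 lay above DKO replicate 2. Hoxc10, the highest of the caudal genes, differed by 0.02 (SE 0.16).

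Among the remaining genes with an unadjusted p under 0.05, Hoxa9, a gene of thoracic and lumbar segments, had 473 and 474 in DKO, against 253 to 386 (median 368) in WT (0.51, SE 0.18, adjusted p = 0.0982, limma). Hoxa7 had 206 and 215 in DKO, against 223 to 344 (median 263) in WT (-0.36, SE 0.16, adjusted p = 0.174, limma). In all, 5 Hox genes lay higher in both DKO libraries than in every WT library (Hoxa9, Hoxa10, Hoxc13, Hoxd10 and Hoxd11), against 14.9% of all genes tested, and 3 lay lower (Hoxa7, Hoxb8 and Hoxb9), against 15.8%. Hoxd11 had 189 and 166 in DKO, against 9.76 to 150 in WT.

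**Figure D3:**
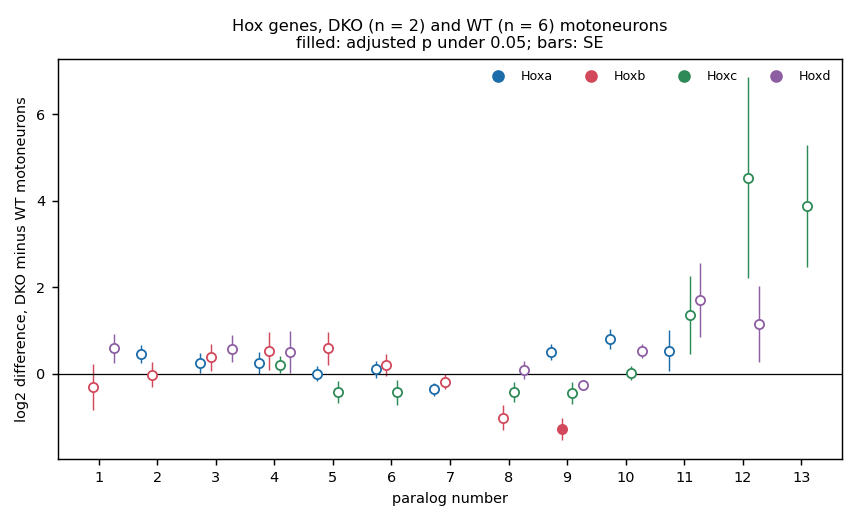
Log2 difference (DKO minus WT motoneurons, on log2(signal + 1)) of 35 Hox genes tested, by paralog number and coloured by cluster, with bars for the SE and filled points for an adjusted p under 0.05. Hoxb9 at -1.28 is the filled point, and all 9 points of paralogs 10 to 13 lie above 0 with SEs up to 2.33.

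How many Hox genes passed depended on the WT libraries used. Against WT replicates 2, 3 and 4 alone, the libraries with high Rn45s, 10 Hox genes were higher and 5 lower in DKO, where 7.97% of all genes tested were higher and 7.27% lower. Against WT replicates 1, 5 and 6 alone 1 was higher and 1 lower, where the shares of all genes were 6% and 8.1%. Without WT replicate 1, 3 were higher and 2 lower (all genes 3.84% and 5.49%), and without WT replicate 6, 2 were higher and 2 lower (all genes 2.38% and 3.47%). The part of the Rn45s level or of the makeup of these libraries in the Hox differences was not tested. Hoxb9 was lower in DKO in each of these 4 fits. Hoxc4 to Hoxc9, the 5 Hoxc genes below paralog 10, had differences between -0.44 and 0.21.

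The Hox genes whose miR-218 sites are shown above had differences of 0.81 (Hoxa10), 0.38 (Hoxb3), 0.09 (Hoxd8) and 0.53 (Hoxd10). Hoxb3 had 261 and 248 in DKO, against 138 to 362 in WT. Hoxd8 had 139 and 128 in DKO, against 94.7 to 172 in WT. The DKO values of Hoxb3 and Hoxd8 lay within the WT range, and none of these 4 genes passed the test.

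The comparison of WT motoneurons with interneurons takes the V1, V2a and V3 libraries as 3 members of 1 class, and it shares the WT libraries with the comparison above. Hox RNA was lower in motoneurons. Hox genes made up 0.188% and 0.189% of the total signal in DKO motoneurons, 0.158% to 0.209% in WT motoneurons, and 0.482%, 0.454% and 0.545% in V1, V2a and V3. Of 37 Hox genes tested, 25 were lower in WT motoneurons and 0 were higher, where 15.2% of 16486 genes tested were lower and 17.7% higher (limma, adjusted p under 0.05). The median log2 difference was -1.59 over the 37, against -0.04 over all genes tested. In sorted bulk samples, fewer cells with a transcript and less of it per cell cannot be told apart.

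**Figure D4:**
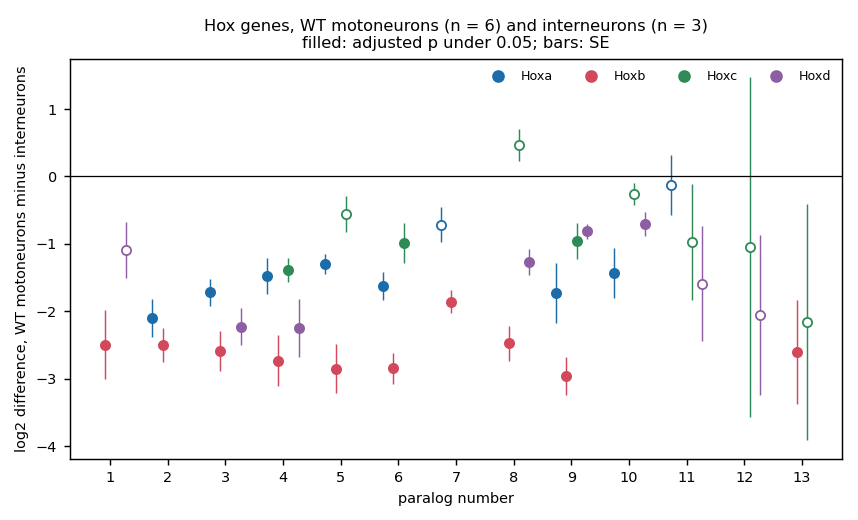
Log2 difference (WT motoneurons minus interneurons) of 36 Hox genes tested, by paralog number and coloured by cluster, with bars for the SE and filled points for an adjusted p under 0.05. All 10 Hoxb points are filled and lie between -2.96 and -1.86, and Hoxc8 at 0.47 is the one point above 0.

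In the Hoxb cluster every gene from Hoxb1 to Hoxb9 was lower. With Hoxb13, whose direction was fixed by the filter as given below, all 10 Hoxb genes passed, with a median of -2.60. This compares with 7 of 10 tested Hoxa genes (median -1.46), 3 of 9 Hoxc genes (-0.97) and 5 of 8 Hoxd genes (-1.43). Hoxb9 had 219 to 532 in WT motoneurons, against 1875, 2511 and 4308 in V1, V2a and V3, a difference of -2.96 (SE 0.28, adjusted p = 5.87e-05, limma). Hoxb6 had 162 to 366 (median 185) in WT motoneurons, against 1315, 1587 and 1629 (-2.85, SE 0.23, adjusted p = 1.84e-05). Hoxb5 had 112 to 425 (median 164) in WT motoneurons, against 1550, 1658 and 919 (-2.85, SE 0.36, adjusted p = 0.000302). These genes pattern the cervical to thoracic axis, and for each the highest motoneuron library lay below the lowest interneuron library.

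Towards the start of the cluster the differences were of like size. Hoxb4 had 26.6 to 112 (median 35.5) in WT motoneurons, against 251, 326 and 268 in V1, V2a and V3 (-2.73, SE 0.37). Hoxb3 had 138 to 362 (median 185), against 1627, 975 and 1035 (-2.59, SE 0.29). Hoxb2, a hindbrain gene in the early embryo, had 71.3 to 191 (median 112), against 511, 716 and 737 (-2.50, SE 0.26). Hoxb1, which gives the facial motoneuron segment of the hindbrain its identity, was low in both, with 0.854 to 4.77 (median 3.04) in WT motoneurons, against 8.69, 17.8 and 38.2 (-2.49, SE 0.51). Hoxb8 had 193 to 560 in WT motoneurons, against 1949, 1663 and 1554 (-2.47, SE 0.26), and Hoxb7 had 209 to 315 (median 242), against 1209, 751 and 807 (-1.86, SE 0.17). The adjusted p of these 6 genes (limma) lay between 4.36e-05 and 0.00469. Hoxb13 was listed at 0 in all 6 WT libraries and in V3, and at 21.5 in V1 and 9.10 in V2a. It passed the filter on low signal only through V1 and V2a, so it could only come out lower in motoneurons. Its adjusted p of 0.0254 (limma) was lost without V1 (0.107) or V2a (0.101), and with WT replicates 2, 3 and 4 alone (0.103) or 1, 5 and 6 alone (0.132). Hoxb thus gave 11.4% to 20.3% of the Hox signal in WT motoneurons, and 34.3%, 34.1% and 31.6% in V1, V2a and V3.

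To show what these genes carry at their starts, the windows from 250 bases before to 50 after the start are printed for 2 Hoxb genes, Hoxb4 (chr11:96318017-96318316, plus) and Hoxb8 (chr11:96281655-96281954, plus; both RefSeq, GRCm38.p6). Capitals mark, on either strand, TTTATG (the core bound by Cdx factors, which activate Hox genes in the caudal embryo), AGGTCA (a half-site of retinoic acid receptors) and TATAAA (the TATA box), of which the complement of the last, TTTATA, shares its first 5 letters with the first:
Hoxb4: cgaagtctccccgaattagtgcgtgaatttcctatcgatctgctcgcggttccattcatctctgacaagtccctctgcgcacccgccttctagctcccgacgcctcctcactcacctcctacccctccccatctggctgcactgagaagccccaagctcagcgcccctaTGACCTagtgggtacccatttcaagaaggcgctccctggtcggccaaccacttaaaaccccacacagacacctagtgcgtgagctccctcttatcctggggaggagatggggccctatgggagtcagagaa
Hoxb8: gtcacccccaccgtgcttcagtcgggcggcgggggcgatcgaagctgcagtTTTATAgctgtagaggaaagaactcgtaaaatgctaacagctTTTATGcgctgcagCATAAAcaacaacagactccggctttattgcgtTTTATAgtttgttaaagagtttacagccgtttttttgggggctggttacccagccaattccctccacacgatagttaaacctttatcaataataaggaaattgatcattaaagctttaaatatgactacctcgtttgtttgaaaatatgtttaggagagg

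Hoxb4 held 1 match to AGGTCA, and Hoxb8 held 2 matches to TTTATG and 2 to TATAAA. Over the 24 windows found for 22 of the Hox genes, 29.2% held AGGTCA, 20.8% TTTATG and 16.7% TATAAA, against 16.3%, 11.9% and 13.6% of all 32851 windows. The median number of CpG was 14.5 in the Hox windows and 7 in all. A match is a description of the letters and not evidence of binding.

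In the other clusters, Hoxd3 and Hoxd4 were the genes nearest to the Hoxb values. Hoxd4 had 102 to 422 (median 185) in WT motoneurons, against 716, 879 and 1132 in V1, V2a and V3 (-2.24, SE 0.43, adjusted p = 0.00333, limma). Hoxd3 had 165 to 492 (median 237), against 1231, 993 and 1353 (-2.23, SE 0.28, adjusted p = 0.000303). Of the Hoxa genes, Hoxa2 differed most, with 66.0 to 116 in WT motoneurons, against 472, 505 and 198 (-2.10, SE 0.29). The called genes Hoxa3, Hoxa4, Hoxa5, Hoxa6, Hoxa9 and Hoxa10 had differences between -1.73 and -1.29, Hoxc4, Hoxc6 and Hoxc9 between -1.39 and -0.95, and Hoxd8, Hoxd9 and Hoxd10 between -1.27 and -0.70. Hoxc6, Hoxc9 and Hoxa10, which take part in brachial, thoracic and lumbar motoneuron identity, each lost the call in some fits. Hoxc6 lost it without V2a (adjusted p = 0.0969) or V3 (0.102) and in the transcript table (0.0507), and Hoxc9 without V2a (0.0709) or V3 (0.0843). Hoxa10 lost it with WT replicates 1, 5 and 6 alone (0.125) and with library weights, which moved its difference of -1.43 to -0.59 (0.0814). With WT replicates 2, 3 and 4 alone Hoxc6 (0.125), Hoxc9 (0.0652) and Hoxa9 (0.0538) did not pass, and with WT replicates 1, 5 and 6 alone Hoxc9 (0.0522), Hoxa9 (0.120) and Hoxd10 (0.0829) did not.

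By position along the clusters, 6 of 8 genes of paralogs 1 to 3, 10 of 12 of paralogs 4 to 7, 6 of 7 of paralogs 8 and 9, and 3 of 10 of paralogs 10 to 13, Hoxb13 among them, were lower in WT motoneurons. In all, 22 genes had every WT motoneuron library below every interneuron library, against 16.1% of all genes tested. Hoxc8 was the one gene with a positive difference. It had 1630 to 3166 (median 2086) in WT motoneurons, against 1191, 2092 and 1640 in V1, V2a and V3 (0.47, SE 0.23, adjusted p = 0.143, limma). Against the interneurons, WT replicates 2, 3 and 4 alone gave a call for it (0.78, adjusted p = 0.0376). Hoxc10 had 1105 to 1753 in WT motoneurons, against 2053, 1508 and 1499 (-0.26, SE 0.16). Hoxc5, which with Hoxa5 maintains phrenic motoneurons, had 176 to 394 (median 236), against 376, 537 and 263 (-0.56, SE 0.27). The groups overlapped for each of these 3 Hoxc genes.

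For the other genes that did not pass, the interneuron libraries often differed from each other. Hoxa7 had 223 to 344 in WT motoneurons, against 330, 336 and 788 in V1, V2a and V3 (-0.71, SE 0.26, adjusted p = 0.0521, limma). Hoxd1 had 5.67 to 9.53, against 34.6, 15.7 and 7.41. Hoxa11 had 51.7 to 250, against 161, 93.5 and 189, a difference of -0.13 with an SE of 0.45. Hoxc11 had 15.0 to 286 in WT motoneurons, against 461, 215 and 86.7 in V1, V2a and V3, Hoxc12 had 0 to 484, against 735, 125 and 0, and Hoxc13 had 0 to 48.0, against 295, 39.7 and 0. Hoxd11 had 9.76 to 150, against 433, 149 and 65.8, and Hoxd12 had 0 to 6.78, against 60.6, 22.7 and 0. In these last 5 genes V1 was above every WT motoneuron library and V3 lay within their range.

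Cell markers also differed between the classes. The summed progenitor markers (6 of 6 listed genes) were at 225 to 449 in WT motoneurons and at 291, 766 and 1336 in V1, V2a and V3. The summed mesenchyme and meninges markers (5 of 5) were at 3.93 to 22.1 in WT motoneurons and at 10, 195 and 853 in V1, V2a and V3. The summed blood markers (4 of 4) were at 2.78 to 1282 in WT motoneurons and at 187, 10624 and 663 in V1, V2a and V3. The part of such cells in the Hox values was not tested.

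Among the interneurons the caudal genes set the libraries apart, with 1 library each and hence no test. Against the mean of the other interneuron libraries and past 2-fold on the log2(signal + 1) scale, V1 had 8 Hox genes higher and 2 lower of 38 compared, where 6.11% of 16587 genes were higher and 10.7% lower. Of the 8, 7 were in paralogs 10 to 13: Hoxc11, Hoxc12, Hoxc13, Hoxd11 and Hoxd12, with the values above, Hoxb13 (21.5 in V1, against 9.10 in V2a and 0 in V3) and Hoxd13 (4.09, against 0.875 and 0). The other was Hoxd1. Hoxd13 passed the filter on low signal only through V1, so it could only come out higher there. V1 had 7 Hox genes higher with a pseudocount of 10 (2.7% of all genes) or a mean of at least 10 (4.21%). Hoxa9 and Hoxb1 were lower in V1.

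V3 had 4 Hox genes higher and 10 lower, against 8.83% and 6.89% of all genes. The higher ones included 3 neighbours in the Hoxa cluster. Hoxa9 was at 3338 in V3, against 636 in V1 and 635 in V2a, Hoxa10 at 2415, against 886 and 598, and Hoxa7 at 788, against 330 and 336. The fourth was Hoxb1. Of the 10 lower genes, 7 were in paralogs 10 to 13, where Hoxc12, Hoxc13, Hoxd12 and Hoxb13 were listed at 0, Hoxc11 was at 86.7, Hoxd11 at 65.8 and Hoxd13 at 0. The genes listed at 0 in V3, Hoxd13 among them, passed the filter on low signal only through V1 and V2a. They could therefore only come out lower in V3. The other 3 lower genes included Hoxa2 and Hoxd1. V3 had 8 Hox genes lower with a pseudocount of 10 (2.82% of all genes) and 9 with a mean of at least 10 (4.61%). V2a had 1 gene higher and 4 lower, Hoxa9, Hoxa10, Hoxc12 and Hoxc13, against 3.01% and 6.88% of all genes. Paralogs 11 to 13 gave 7.23%, 2.19% and 0.956% of the Hox signal in V1, V2a and V3. The Hox paralogs 9 and 10 of the Hoxa cluster thus peaked in the library that was lowest for Hoxc12 and Hoxc13, which also had the highest sums of mesenchyme and progenitor markers, and the part of those cells was not tested.

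**Figure D5:**
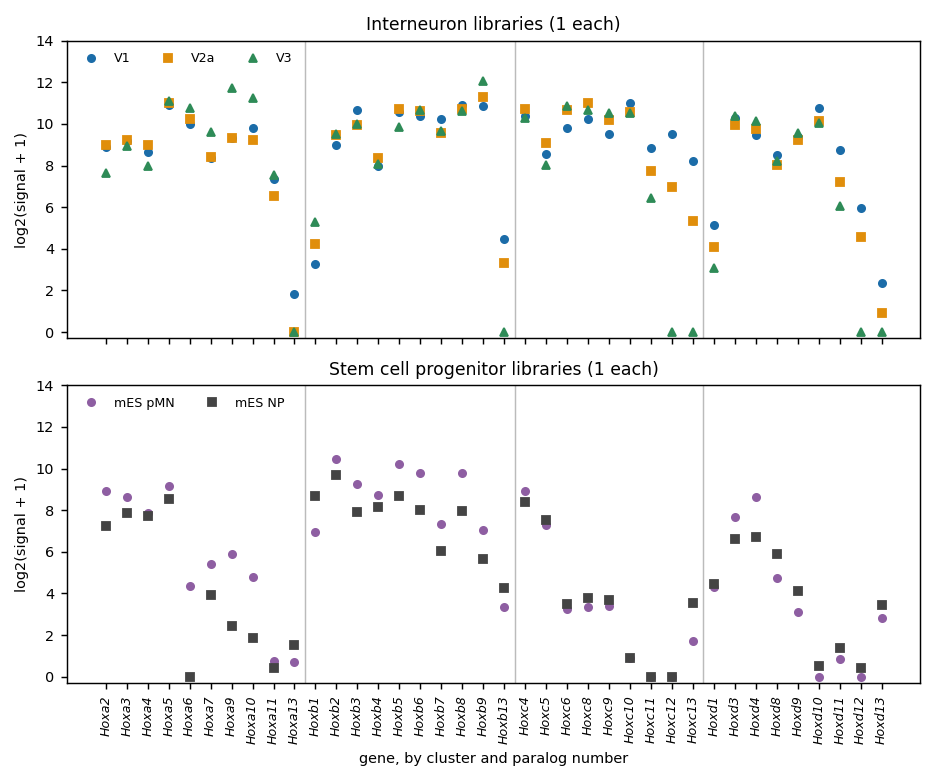
Level of 38 Hox genes as log2(signal + 1) in the V1, V2a and V3 libraries (top) and in the mES pMN and mES NP libraries (bottom), 1 library each, with genes by cluster and paralog number. V3 is listed at 0 for Hoxc12 and Hoxc13, and both mES libraries are near 0 for the genes from Hoxc10 to Hoxc12.

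In the stem cell-derived progenitors most of the Hox signal came from paralogs 1 to 7. Paralogs 1 to 3 gave 41.4% of it in mES pMN and 49.4% in mES NP, paralogs 4 to 7 gave 46.7% and 42.1%, paralogs 8 and 9 gave 11.5% and 7.61%, and paralogs 10 to 13 gave 0.485% and 0.879%. Pluripotency markers (3 of 3) summed to 1612 in mES pMN and 1937 in mES NP, against 18.6 or less in the spinal libraries, and mesenchyme and meninges markers to 180 in mES pMN and 484 in mES NP, and the part of such cells in the Hox values was not tested. The Hoxb cluster gave 59.6% in mES pMN and 52.9% in mES NP. High members in mES pMN were Hoxb2 (1411), Hoxb5 (1206), Hoxb6 (890) and Hoxb8 (882), and in mES NP Hoxb2 (820), Hoxb1 (412) and Hoxb5 (407). Hoxb1, an early target of retinoic acid in the hindbrain, was thus far above its motoneuron values of 0.854 to 4.77 in WT.

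Against mES NP, mES pMN had 13 Hox genes higher and 4 lower past 2-fold of 33 compared, where 8.32% of 16792 genes were higher and 16.7% lower; with 1 library each there was no test. Hoxb8 was at 882 in mES pMN and 252 in mES NP, Hoxb6 at 890 and 258, Hoxb5 at 1206 and 407, Hoxd4 at 399 and 103, and Hoxa2 at 480 and 150. The largest ratios were in genes of low signal: Hoxa6 was at 19.6 in mES pMN and listed at 0 in mES NP, Hoxa9 was at 58.9 and 4.48, and Hoxa10 at 26.9 and 2.61. Hoxa6 passed the filter on low signal only through mES pMN, so it could only come out higher there. Hoxb1 went the other way, with 121 in mES pMN and 412 in mES NP, and so did Hoxc13 (2.32 and 10.6), Hoxd8 (25.5 and 57.6) and Hoxd9 (7.69 and 16.5). Hoxc6, Hoxc8 and Hoxc9, which were among the highest genes of the motoneurons, were at 8.62 to 9.39 in mES pMN and 10.1 to 12.9 in mES NP.

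Genes around the pathway were followed as lists, to be read against 3.22% of all genes higher and 4.77% lower in DKO, and 17.7% higher and 15.2% lower in WT motoneurons than in interneurons. Of 19 listed noncoding RNAs of the Hox clusters 6 were in the table. Haunt, which lies beside the Hoxa cluster, had 0 and 2.25 in DKO, against 10.7 to 34.2 in WT, and was lower (-3.42, SE 0.53, adjusted p = 0.00505, limma). It passed the filter on low signal only through the WT libraries, so it could only come out lower in DKO. In DKO replicates 1 and 2, 3 reads in 2000 bases were worth 3.94 and 1.90, so these values carry little information. Among the 6 noncoding RNAs 0 were higher in DKO. Of these 6, Haunt was higher in WT motoneurons than in interneurons, and Hoxd3os1, Gm53 and Mira were lower. The library kit did not keep strand, so reads of a Hox gene and of an antisense RNA such as Hoxa11os or Hoxd3os1, or of overlapping Hox gene models, cannot be told apart.

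Of 21 tested Hox regulators and cofactors, 1 was higher in DKO, Pbx2 (0.52, adjusted p = 0.0226, limma), a partner in DNA binding, and 1 was lower, Cyp26b1, which degrades retinoic acid. Cyp26b1 had 102 and 95.7 in DKO, against 135 to 254 in WT (-0.98, SE 0.23, adjusted p = 0.0292). The list's median was -0.07, and 1 of 21 in each direction is near the share of all genes. Against the interneurons 6 of the 21 were higher in WT motoneurons, with Nr2f2, a nuclear receptor, at 3.32, and Cyp26b1 (2.27) next. Another 6 were lower, Pknox2, Pknox1, Pbx2, Gdf11, Pbx4 and Fgf8. Fgf8 was low in both classes and passed the filter on low signal only through the interneuron libraries. A call for Fgf8 could therefore only be lower in motoneurons, and its values carry little information. Of 22 Polycomb and Trithorax genes, which keep Hox genes silent or active, Bmi1 (1.06, adjusted p = 0.00331) and Phc3 (0.84, adjusted p = 0.0321) were higher in DKO and Cbx2 (-0.72, adjusted p = 0.0250) was lower. Bmi1, a subunit of Polycomb repressive complex 1, had 573 and 599 in DKO, against 230 to 331 in WT. In WT motoneurons 13 of the 22 were lower than in interneurons, Bmi1 (-1.43), Jarid2 (-1.23) and Ezh2 (-1.03) among them, and Rbbp7 (0.56) was higher, with a list median of -0.55; over all genes 15.2% were lower and 17.7% higher.

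Of 18 tested genes that flank the clusters, Cbx1 was higher (0.76) and Skap2 lower (-0.78) in DKO, again near the share of all genes, and 4 were higher and 3 lower in WT motoneurons than in interneurons. Of 21 motor column and pool genes, which Hox proteins help to set, 0 were higher and 3 lower in DKO, where 3.22% of all genes were higher and 4.77% lower. Aldh1a2, the retinoic acid enzyme of limb motoneurons, had 989 and 1050.1 in DKO, against 1958 to 4373 in WT (-1.57, SE 0.26, adjusted p = 0.00686, limma). Lhx3, of the medial column, had 470 and 388, against 503 to 923 (-0.79, adjusted p = 0.0350, limma). Runx1 had 1.88 and 4.04 in DKO, against 6.87 to 14.6 in WT (-1.57, adjusted p = 0.0384, limma). In DKO replicate 1, 3 reads in 2000 bases were worth 3.94, so its Runx1 value carries little information. Runx1 also passed the filter on low signal only through the WT libraries, so it could only come out lower in DKO. Foxp1, the Hox cofactor of limb-level motor columns, had 816 and 723 in DKO, against 788 to 1439 in WT, and did not pass. Against the interneurons 12 of these 21 genes were higher in WT motoneurons and 0 lower (17.7% and 15.2% of all genes), with a median of 2.54. The list holds Mnx1, whose reporter was used to sort the cells, and other motoneuron genes such as Isl1 and Isl2. Higher values in motoneurons were therefore built into the sort and the list.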

How the data were processed

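Polyadenylated RNA of sorted or differentiated mouse cells was made into libraries with a kit that does not mark strand, per the labels' protocols. The authors deposited a signal per gene (23523 entries) and per transcript (31702) on RefSeq models, as the headers show. DESeq, bedtools, mm9 and mm10 appear in the submitters' processing notes with no role, and the aligner and counter are not given in sources used here. The signal is no count, so the form of the test for normalized values was used. Differences were tested with limma 3.58.1 (R 4.3.3, limma-trend, two-sided) on log2(signal + 1), which understates changes of low genes, for genes with a mean of at least 1 over the libraries compared, with Benjamini-Hochberg adjustment over all of them and a threshold of 0.05. Single libraries were compared by a 2-fold difference. Depths were read from the steps of low values, where 79.1% to 80.6% of values lay within 0.1 of a whole multiple. No library repeated another (highest correlation 0.993). The test was checked on simulated data. UTRs and gene positions came from GENCODE M21 on GRCm38. Members, lists and alternatives were chosen with earlier results of these data known, and named genes are those called or at an unadjusted p under 0.05 in DKO, the 10 largest and the uncalled in the interneuron comparison, those past 2-fold in single libraries, the highest and the most variable. Alternatives changed the pseudocount, filter, scaling, weights, table, libraries and replicate block. Results for 2 genes are not reported here.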

Additional observations from a re-analysis of the deposited data

Results flagged for a closer look

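Among the 6 WT motoneuron libraries, replicate 1 stood far above the other libraries for 5 Hox genes, by the gap to the next library over the whole range. Hoxb4 was at 112 there, with the next library at 41.1. Hoxb5 was at 425, with the next at 215, and Hoxb6 at 366, with the next at 231. Hoxd3 was at 492, with the next at 279. Hoxa13 was at 0.503, where the other 5 libraries were listed at 0, and 3 reads in 2000 bases were worth 0.995 in replicate 1. Chance alone would flag about 1 gene in 20, and these genes share 1 library, so the flags are not independent of each other.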

How the results depend on the processing

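The number of Hox genes called between DKO and WT motoneurons was 1, where 7.99% of all genes were called. It was 2 with libraries scaled to a common total (7.69% of all genes), 6 with library weights (22.9%), 15 against WT replicates 2, 3 and 4 alone (15.2%), 2 against WT replicates 1, 5 and 6 alone (14.1%), and 0 to 5 when each library was left out in turn (0.598% of all genes without DKO replicate 1). The replicate block gave 4 calls (1.32% of all genes). Deviations of same-numbered libraries correlated at -0.06 and -0.01. With 2 DKO libraries their deviations are mirror images, so these values cannot decide whether the numbers pair the samples. The cause of these moves was not tested. Against the interneurons the count of 25 lay between 20 and 29 under all alternatives, and the common total moved the median of all genes to -0.22 and the split of all calls to 2014 higher and 3908 lower, against 2921 and 2498 as deposited. At 3-fold, 2 genes passed for V2a (5 at 2-fold) and 9 for mES pMN (17 at 2-fold). No Hox gene reversed its direction when called. Depth limits DKO replicate 1 most, and values near 3 reads carry little.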

Other observations

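The transcript table divides 4 Hox genes between 2 transcripts each, and the transcripts add up to the gene signal for all 39. The larger transcript of Hoxb3 held 70.1% to 71.0% of the gene's signal in DKO motoneurons, 64.4% to 100% in WT motoneurons, and 69.8%, 73.4% and 71.6% in V1, V2a and V3. The Hoxa10 transcript that was the larger in both DKO libraries held 69.0% to 71.4% in DKO, 48.2% to 73.6% in WT, and 63.9%, 65.0% and 48.9% in V1, V2a and V3. It was the smaller in WT replicate 4 (48.2%) and in V3. The larger transcript of Hoxa9 held 52.3% and 82.5% in the DKO libraries, 62.5% to 86.0% in WT, and 72.8%, 82.8% and 78.8% in V1, V2a and V3. The protein-coding transcript of Hoxd11 held 40.5% and 52.0% in DKO and 16.4% to 80.6% in WT, where the other transcript is listed as noncoding. The DKO values of Hoxb3, Hoxa10 and Hoxd11 lay within the WT range. Transcripts of 1 gene share bases, so these shares are estimates.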
